A study of Gallus gallus with 8 samples.

Results

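The genes described here were far apart between the 2 untreated libraries and steady in all 6 libraries that received DAN. They were 12 of the 17108 genes measured. A gene was taken when its higher untreated value was at least 2 RPKM (reads per kilobase of gene, scaled to library size) and at least 8 times the lower one, or the lower one was 0. Its 6 values with DAN also had to be above 0, with the highest at most 2 times the lowest. The members were thus chosen by these untreated and DAN values, so the levels are given as a description, without a test. The cells were cranial neural crest of leghorn chicken embryos (Gallus gallus), which had left cultured neural tube pieces of hindbrain level overnight on fibronectin and poly-D-lysine. There were 2 untreated libraries (0 µg/ml DAN, replicates 2 and 3), 3 at 1 µg/ml DAN and 3 at 10 µg/ml DAN (replicates 1, 2 and 3 of each). The labels state no other difference between the groups than the DAN/NBL1 protein added to the medium, and they give 200 to 1000 harvested cells per sample. Untreated replicate 1 is not analysed here.

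Neural crest cells arise at the dorsal neural tube, migrate through the embryo and form, among others, skeleton, nerve and pigment of the head. DAN, the product of NBL1, is a secreted protein of the extracellular space that binds bone morphogenetic proteins and keeps them from their receptors. The low-input kit used here copies polyadenylated RNA of few cells into full-length cDNA and amplifies it before sequencing.

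The files give the genes by Ensembl ID only, and 0 of the IDs matched the reference table used here, so none of the 12 can be given a name, a role or a place in the genome. The genes are lettered A to L in order of falling mean RPKM with DAN. Gene A is ENSGALG00000014908 and gene B ENSGALG00000025675, the most abundant with DAN among those higher in untreated replicate 3. Gene J is ENSGALG00000001085, the 1 gene that was higher in untreated replicate 2. Marker genes of the neural crest or of other cells could not be read for the same reason, and the share of other cells in each culture is not analysed here. In bulk libraries, fewer cells of a type and less RNA per cell cannot be told apart.

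Untreated replicate 2 was the low library for 11 of the 12 genes, and untreated replicate 3 for gene J. Summed over those 11 genes, replicate 2 held 403 counts and 7.81 RPKM, where the geometric mean of each gene's values with DAN would give 7023 counts in a library of that depth. Replicate 3 held 124 RPKM in sum for the same genes, and the libraries with DAN 82.5, 99.2 and 85.6 at 1 µg/ml and 76.6, 103 and 92.7 at 10 µg/ml. The sum in replicate 2 lay below each library with DAN. The sum in replicate 3 lay above each of them with genes C and D included. For the other 9 genes it was 64.1 RPKM, within the 60.9 to 78.6 RPKM of the libraries with DAN, against 4.45 RPKM in replicate 2. Genes C and D had the highest values in replicate 3, so leaving them out lowered its sum most. The sum of the 9 also mixes gene A, below its range with DAN in replicate 3, with genes E and L, above theirs.

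**Figure D1:**
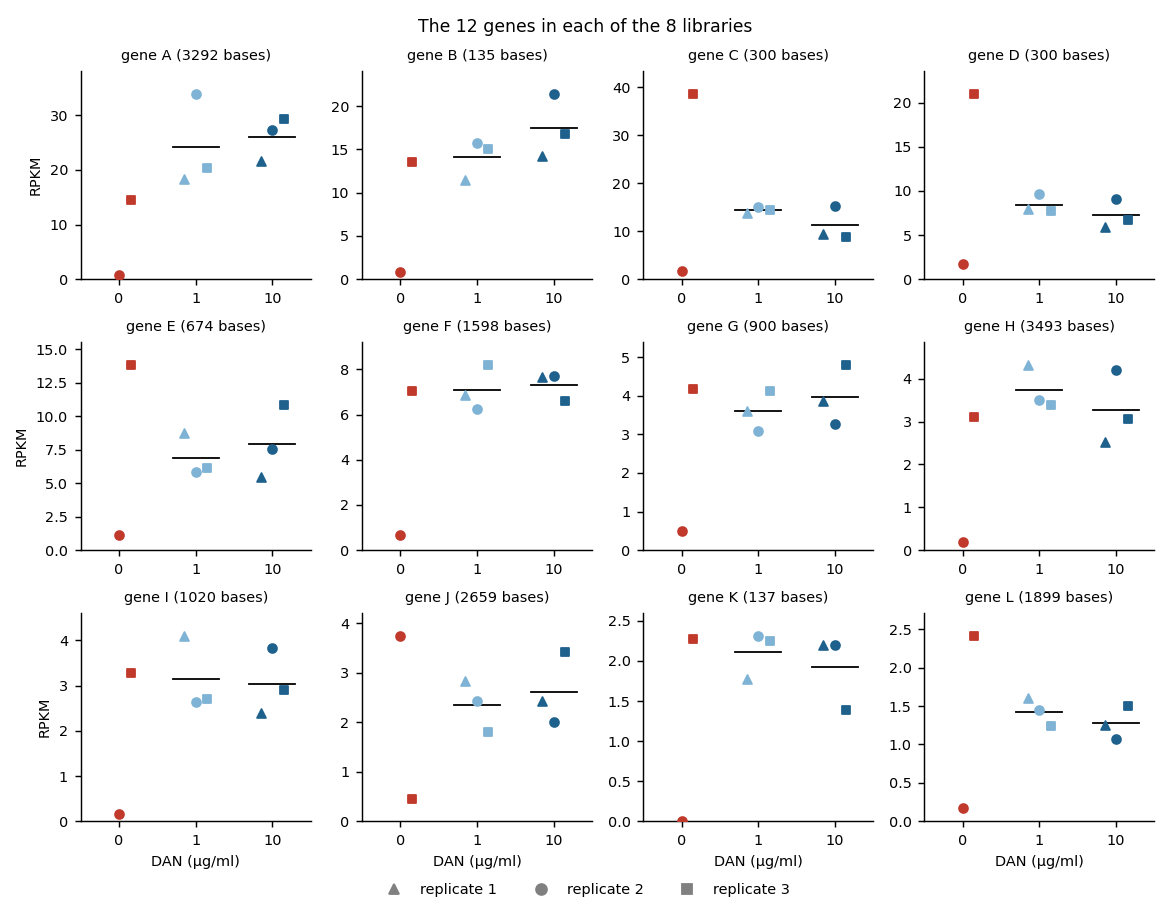
Each panel shows 1 gene, with RPKM on the vertical axis (from 0) and the DAN dose in µg/ml on the horizontal axis; symbols are single libraries by replicate number and black lines are means of 3 libraries. Untreated replicate 2 is the lowest point in 11 panels, and untreated replicate 3 is the lowest in the panel of gene J.

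Gene A, the most abundant of them, stood at 0.827 RPKM in untreated replicate 2 and 14.4 RPKM in untreated replicate 3. It stood at 18.3, 33.9 and 20.3 RPKM in replicates 1, 2 and 3 at 1 µg/ml, and at 21.6, 27.4 and 29.3 RPKM at 10 µg/ml. Both untreated libraries lay below all 6 with DAN, which no other gene of the set shows. Of the 14085 genes tested, 15.6% had all 6 libraries with DAN above both untreated ones. Among the 6899 genes steady with DAN and with at least 2 RPKM in an untreated library, the share was 19.2%. Replicate 2 held 151 counts of gene A against the 4482 that its level with DAN would give. Replicate 3 was at 0.588 of the geometric mean with DAN, and replicate 2 at 0.0337 of it, the deepest shortfall among the 11 genes with a count in their low library.

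In 6 genes (B, F, G, H, I and K) replicate 3 lay within the range with DAN and only replicate 2 lay outside. Replicate 3 was at 0.869 to 1.14 times the geometric mean with DAN in these genes. The rule itself puts an untreated library outside the range, since values 8-fold apart cannot share a range of at most 2-fold. Over the 6899 genes steady with DAN, replicate 3 lay within the range in 40.1%, above it in 28.4% and below it in 31.5%. Replicate 2 lay below it in 41.9% of them. Gene B stood at 0.801 RPKM in untreated replicate 2 and 13.5 in replicate 3, at 11.5, 15.7 and 14.996 RPKM at 1 µg/ml, and at 14.3, 21.4 and 16.8 RPKM at 10 µg/ml. Its low value rests on 6 counts, with a 95% counting interval of 0.294 to 1.74 RPKM. The rule chose the gene by this value and the interval does not allow for that. Nothing is read from its distance to the libraries with DAN. Gene F was the steadiest with DAN, with 7.10 ± 0.999 RPKM (SD, n = 3) at 1 µg/ml and 7.32 ± 0.610 RPKM (SD, n = 3) at 10 µg/ml. Its untreated values were 0.688 RPKM in replicate 2 and 7.04 RPKM in replicate 3, the latter inside that spread.

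Genes H and I had the lowest untreated replicate 2 values among genes with a count there, relative to their level with DAN, after A and B. Gene H stood at 0.181 RPKM in replicate 2, 3.12 RPKM in replicate 3 and 2.53 to 4.32 RPKM with DAN. Gene I stood at 0.159 RPKM in replicate 2, 3.28 RPKM in replicate 3 and 2.39 to 4.10 RPKM with DAN. The lowest library with DAN was 14.0 times the level of replicate 2 in gene H, and the shortfall of gene I was of like size. Gene G was nearer the rule's limit, with 0.501 RPKM in replicate 2, 4.17 RPKM in replicate 3 and 3.08 to 4.80 RPKM with DAN.

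Gene K had no count in untreated replicate 2 and the fewest counts of the set. A floor of 3 counts corresponds there to 0.395 RPKM, and its level with DAN would give 15 counts. Replicate 3 held 32 counts, or 2.27 RPKM, which is 5.76 times that floor and is taken as the lower bound of its distance from replicate 2. With the lower value set at the floor, the 8-fold distance would not be met. With DAN gene K stood at 1.77, 2.31 and 2.25 RPKM at 1 µg/ml and 2.20, 2.20 and 1.39 RPKM at 10 µg/ml, from 13 counts upwards.

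In 4 genes (C, D, E and L) the untreated libraries lay on opposite sides of the range with DAN, with replicate 2 below it and replicate 3 above it. The share of all steady genes placed this way is not analysed here, so nothing is read from that count. Replicate 3 was at 1.80 to 3.09 times the geometric mean with DAN in these genes. Gene C stood at 1.68 RPKM in replicate 2 and 38.6 RPKM in replicate 3, the widest ratio of the set at 22.9 (95% counting interval 15.8 to 34.7). With DAN it stood at 13.7, 14.9 and 14.4 RPKM at 1 µg/ml and 9.47, 15.3 and 8.83 RPKM at 10 µg/ml, so replicate 3 was 2.53 times the highest of these. Gene D stood at 1.68 RPKM in replicate 2, 21.0 RPKM in replicate 3 and 5.91 to 9.60 RPKM with DAN. Genes C and D have the same length, 300 bases, and the same 28 counts in replicate 2. The ratio of gene C to gene D was 1 in untreated replicate 2, 1.84 in untreated replicate 3 and 1.32 to 1.86 in the libraries with DAN. The rule limits the spread of each gene with DAN, so no common behaviour of these genes is read from the ratios. The authors' treatment of reads that map to several genes is unknown here, and shared reads between these genes were not tested.

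Genes E and L were the other genes with replicate 2 below the range with DAN and replicate 3 above it. Gene E stood at 1.12 RPKM in replicate 2, 13.8 RPKM in replicate 3 and 5.44 to 10.8 RPKM with DAN. Gene L stood at 0.171 RPKM in replicate 2, 2.42 RPKM in replicate 3 and 1.07 to 1.60 RPKM with DAN. Replicate 3 exceeded the highest library with DAN by a factor of 1.28 in gene E and 1.51 in gene L, against 2.19 in gene D.

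Gene J showed the reverse order. It stood at 3.74 RPKM in untreated replicate 2 and 0.458 RPKM in replicate 3, at 2.84, 2.42 and 1.80 RPKM at 1 µg/ml, and at 2.43, 2.00 and 3.41 RPKM at 10 µg/ml. Replicate 2 was 1.10 times the highest library with DAN, and the lowest library with DAN was 3.93 times replicate 3. Replicate 3 held 125 counts of gene J where its level with DAN would give 663. The number of RNA molecules behind these counts is not known. Replicate 3 had the greater depth of the 2 untreated libraries, with 112505258 counts in all against 47523574.

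**Figure D2:**
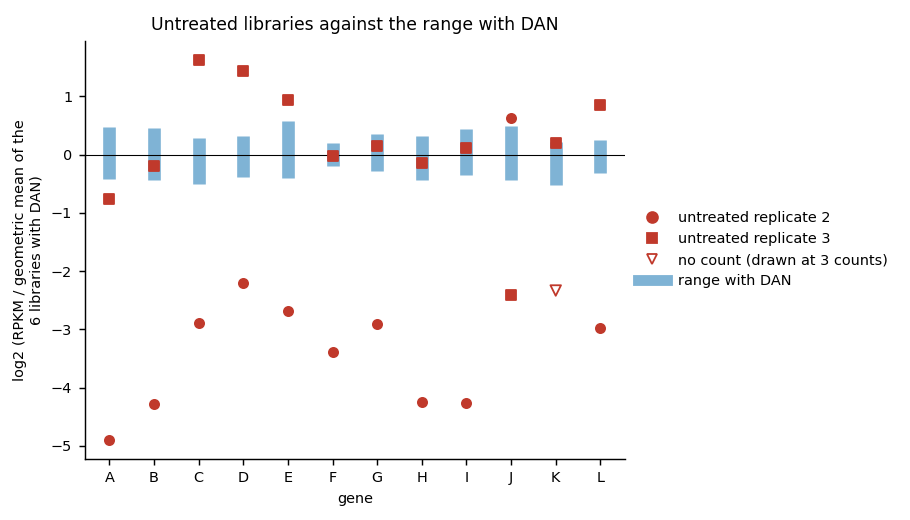
The vertical axis gives log2 of RPKM over the geometric mean of the 6 libraries with DAN, for genes A to L; blue bars span the libraries with DAN, red circles are untreated replicate 2, red squares replicate 3, and the open triangle is gene K at its floor of 3 counts. Replicate 3 lies inside the bar in 6 genes, above it in C, D, E and L, and below it in A and J.

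The ratio between the untreated libraries ran from 8.17 (gene J) to 22.9 (gene C), with a median of 14.1 over the 11 genes with a count in both. Counting error alone leaves 7 of the 12 ratios with a 95% interval above 8, and the other 5 (genes B, F, G, J and K) reach below it, as far as 4.42. The intervals use the untreated values by which the rule chose the genes and do not allow for that choice. Nothing is read from how many lie above 8. Just outside the limit of 8 were genes with ratios of 7.94 (3.45 and 27.4 RPKM in replicates 2 and 3) and 7.72, and just inside it were genes J and G with 8.17 and 8.32. At the limit of 2 RPKM, the nearest gene outside had 1.84 RPKM in its higher library and the nearest inside 2.27 RPKM. At the limit of 2 for the spread with DAN, the nearest outside had a ratio of 2.11 and the nearest inside, gene E, 1.99.

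Steady genes seldom parted this far between the untreated libraries. Of 8660 genes with at least 2 RPKM in an untreated library, 6899 were steady with DAN by the same limit, and their median untreated ratio was 1.38. Among these 6899 genes, 5911 (85.7%) had a ratio under 2, 68 had a ratio of at least 4, and the 12 described here (0.174%) had 8 or more. The higher value was in replicate 3 for 56.5% of the steady genes, 50.5% of the 988 with a ratio of at least 2, 61.8% of the 68 genes and 11 of the 12 (91.7%), so the share did not climb steadily with the ratio.

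**Figure D3:**
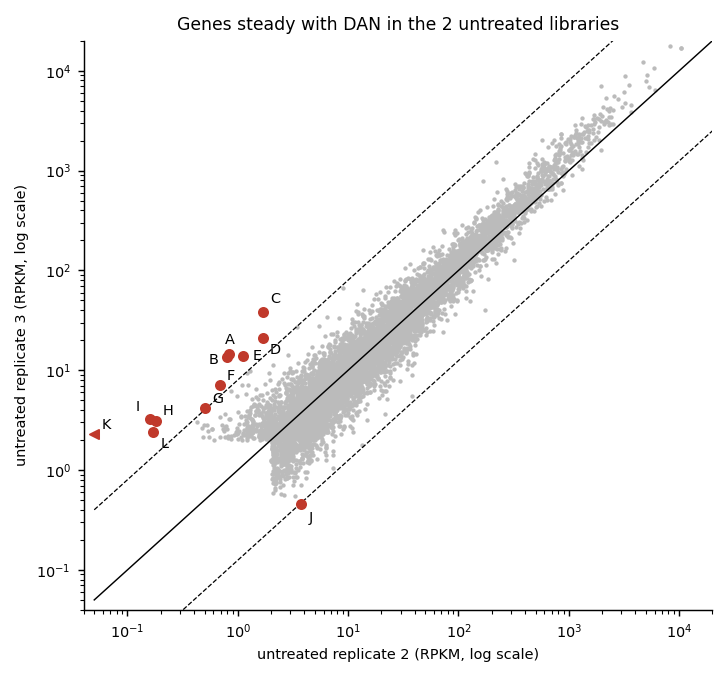
Each point is 1 of the 6899 genes steady with DAN, with RPKM in untreated replicate 2 (horizontal) and replicate 3 (vertical), both on log axes; the solid line marks equal values, dashed lines an 8-fold difference, red points the 12 genes, and the triangle gene K, which has no count in replicate 2 and is drawn at the left edge. Of the red points 11 lie over the upper dashed line and gene J lies at the lower one.

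Most genes that parted as far between the untreated libraries were not steady with DAN. Of the 8660 genes, 70 (0.808%) were at least 8-fold apart, 61 of them higher in replicate 3 and 9 in replicate 2. Among the 70, 9 genes were at 0 in a library with DAN, and 12 (17.1%) were the steady ones. The remaining genes had a median ratio of 4.68 between their highest and lowest library with DAN. The share higher in replicate 3, 91.7% of the 12, is close to the 87.1% of all 70.

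Libraries of the same dose also held genes 8-fold apart, at the same minimum of 2 RPKM. There were 35, 34 and 38 such genes in the 3 pairs at 1 µg/ml (0.409% to 0.461% of the genes at that level) and 54, 22 and 52 in those at 10 µg/ml (0.268% to 0.654%). The median ratio over genes was 1.41 in the untreated pair and 1.12 to 1.16 in the pairs with DAN. In 6 of the 7 pairs more of these genes were higher in the deeper library, and total counts ran from 44338765 to 199084828 per library. The part of depth in the choice of the 12 genes was not tested.

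**Figure D4:**
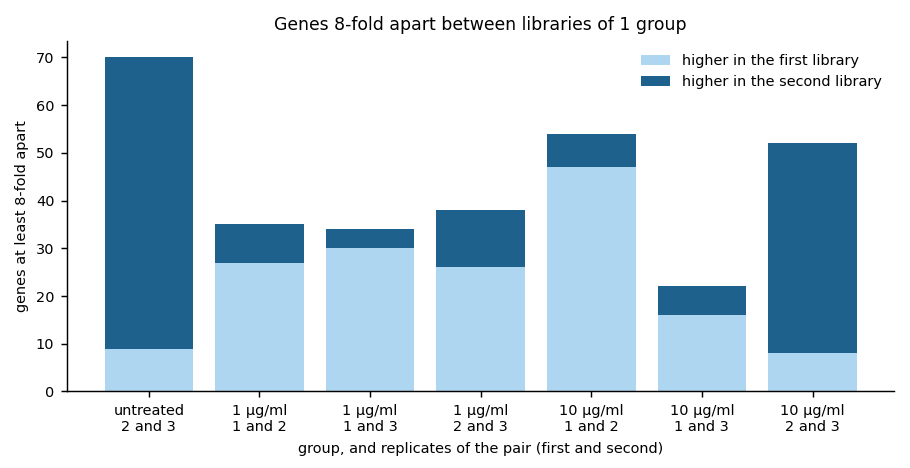
Bars give the number of genes at least 8-fold apart between libraries of 1 group (vertical axis, from 0) for the 7 pairs of replicates, split by which library of the pair is higher. The untreated pair has 70 such genes, 61 of them higher in replicate 3, and the pairs with DAN have 22 to 54.

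Gene length was not part of the rule, and short genes were frequent among the 12. Length was 135 to 3493 bases with a median of 960, against a median of 2062 (quartiles 1218 and 3294) for the 6899 steady genes. Genes B (135 bases), K (137 bases), C and D (300 bases each) and E (674 bases) were in the shortest decile of the steady genes, and no member was in the longest decile. The 12 genes made up 0.725% of that shortest decile (5 of 690 genes) and 0.113% of the other steady genes (7 of 6209). Genes of the shortest decile were higher in untreated replicate 3 in 79.1% of cases, against 30.4% in the longest decile. Among the steady genes the order of the untreated libraries thus differed between these deciles, and the lengths between them are not analysed here. The part of length in the choice of the 12 genes was not tested. The longest members were H (3493 bases) and A (3292 bases), both higher in replicate 3, followed by J (2659 bases), which was higher in replicate 2.

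The 12 genes were also mostly of low level. Their mean RPKM with DAN was 1.35 to 25.1 with a median of 5.50, against a median of 15.9 for the steady genes, and 11 of the 12 lay under that median. The 3925 other steady genes in the same range of levels had a median untreated ratio of 1.41 and a median length of 2645 bases.

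Replicate numbers gave the genes no common order with DAN. The order of replicates 2 and 3 seen in the untreated libraries recurred at 1 µg/ml in 5 of the 12 genes, against 55.6% of all steady genes. At 10 µg/ml it recurred in 4 of the 12, against 50.7%. The rule limits the size of these differences and not their sign. The highest of the 6 libraries with DAN was replicate 1 at 1 µg/ml in 3 genes, replicate 2 at 1 µg/ml in 3 and replicate 3 at 10 µg/ml in 3, and replicate 1 at 10 µg/ml in 0. The lowest was replicate 1 at 10 µg/ml in 4 genes, and each other library with DAN in 1 or 2. The shares over all steady genes are not analysed here, so nothing is read from these counts of highest and lowest libraries.

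The study asked by its design which genes respond to DAN, and the comparison with untreated cells is the one that the discordant libraries enter. None of the 12 genes was called at 10 µg/ml against untreated (0 of 12, adjusted p from 0.173 to 0.975, quasi-likelihood test of edgeR, Benjamini-Hochberg adjusted), where 16.4% of the 14085 genes tested were called. None was called at 1 µg/ml (0 of 12, adjusted p from 0.248 to 0.933, edgeR), where 2.81% of all genes were called, nor for the mean of both doses (0 of 12, adjusted p from 0.163 to 0.981, edgeR), where 16.4% were. An unadjusted p under 0.05 was reached by 0 of the 12 in these comparisons, against 34.7%, 26% and 34.2% of all genes in the same order. DESeq2 also called 0 of the 12, against 26.8%, 16% and 27.1% of the genes it tested. The rule fixed a wide untreated spread, so nothing is read from these counts. The background itself changed when single libraries were left out, also those of the dose not compared. It held 1732, 1662 and 1689 genes at 10 µg/ml without replicates 1, 2 and 3 of 1 µg/ml. At 10 µg/ml its 2304 genes became 507, 1503 and 982 without replicates 1, 2 and 3 of that dose. They became 885 when the model held the untreated and 10 µg/ml libraries alone. At 1 µg/ml its 396 genes became 0 to 15 without any single library with DAN, 825 without untreated replicate 2 and 3469 without untreated replicate 3, and 0 when the model held the untreated and 1 µg/ml libraries alone.

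The fitted changes against untreated were of mixed sign. The median log2 fold change of the 12 was 0.71 at 10 µg/ml (from -0.87 in gene C to 1.76 in gene A) and 0.70 at 1 µg/ml, against medians of -0.02 and -0.03 over all genes tested. At each dose 9 genes lay above 0 and 3 below. The comparisons share their untreated libraries. The rule chose the genes by those untreated values, so nothing is read from the signs or from the distance to the medians over all genes. Gene A (ENSGALG00000014908) had a log2 fold change of 1.76 at 10 µg/ml (adjusted p = 0.173, edgeR) and 1.65 at 1 µg/ml (adjusted p = 0.248, edgeR). Gene B (ENSGALG00000025675) had 1.25 (adjusted p = 0.292, edgeR) and 0.94 (adjusted p = 0.478, edgeR), and gene J (ENSGALG00000001085) 0.32 (adjusted p = 0.770, edgeR) and 0.16 (adjusted p = 0.899, edgeR).

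The fits with 1 untreated library describe the same distance on the fold-change scale. The rule chose genes with distant untreated libraries and steady values with DAN, so the calls, the signs and the turns given here follow largely from that choice, are no test of DAN and are given without p-values. Without untreated replicate 3, 11 of the 12 genes were called higher at 10 µg/ml and the same number at 1 µg/ml (edgeR), with gene J the exception. In these fits 18.5% and 13.4% of all genes were called higher, which is background and not a yardstick for genes so chosen. The median log2 fold change of the 12 was then 3.19 at 10 µg/ml, or 2.94 with gene K set to its lower bound, 4.88-fold over 3 counts in replicate 2. Without untreated replicate 2, 3 of the 12 were called at either dose: genes C and D lower and gene J higher. Of all genes, 7.64% were called lower and 4.8% higher at 10 µg/ml in that fit, and 3.52% lower and 2.14% higher at 1 µg/ml. At 10 µg/ml gene A ranged from 0.84 without replicate 2 to 4.97 without replicate 3 on the log2 scale, and gene B from 0.36 to 4.42. Gene C had a log2 fold change of 2.72 without replicate 3 and -1.81 without replicate 2. Gene J went the other way, from -0.52 without replicate 3 to 2.50 without replicate 2. A lone untreated library is assumed in these fits to vary as the libraries with DAN do, which alone set the spread.

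**Figure D5:**
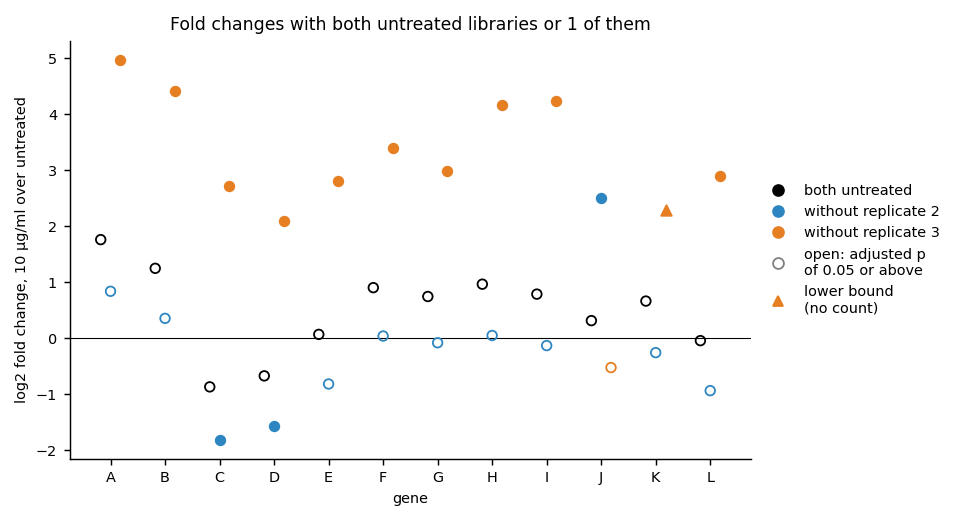
The vertical axis gives the log2 fold change of 10 µg/ml over untreated (edgeR) for genes A to L with both untreated libraries (black), without replicate 2 (blue) and without replicate 3 (orange); filled points have an adjusted p under 0.05, and the triangle is a lower bound for gene K. No black point is filled, and 11 genes are called without replicate 3 (gene K, drawn at its bound, among them) and 3 without replicate 2.

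Between the doses the differences were small, which the rule requires. At 10 against 1 µg/ml the log2 fold change ran from -0.36 (gene C) to 0.31 (gene B) with a median of -0.01, and 6 genes lay on each side of 0. None was called (0 of 12, smallest adjusted p = 0.889, edgeR; 0 with an unadjusted p under 0.05 and 0 with DESeq2), and 0% of all genes were called in edgeR (0 of 14085; 11.4% with an unadjusted p under 0.05, and 1.96% called by DESeq2). Gene B was at 14.1 ± 2.25 RPKM (SD, n = 3) at 1 µg/ml and 17.5 ± 3.62 RPKM (SD, n = 3) at 10 µg/ml, and gene C at 14.3 ± 0.606 and 11.2 ± 3.55 RPKM (SD, n = 3 each). The single values at 1 and 10 µg/ml overlapped in both genes. They were 11.5 to 15.7 against 14.3 to 21.4 RPKM in gene B, and 13.7 to 14.9 against 8.83 to 15.3 RPKM in gene C.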

How the data were processed

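Unnormalized read counts per gene (Ensembl ID) and RPKM values were deposited by the authors for 8 libraries. Per the labels' protocols, cDNA came from a SMART-seq v4 low-input kit and libraries from Nextera XT, read as pairs on a NextSeq. Per the submitters' processing notes, a genome build (galGal4) and the tools edgeR 3.12.0, TopHat2 2.0.13, bedtools and FastQC 0.10.1 were involved, without a stated role. Such a kit has no molecular identifiers and marks no strand, so intervals and floors cover counting error only, and overlapping genes on opposite strands cannot be told apart.

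The rule was applied to the deposited RPKM. Gene length was taken from the ratio of count to RPKM with TMM-adjusted totals, which fitted 5133 genes within 0.0136%. Counts of all 8 libraries entered 1 edgeR 4.0.16 quasi-likelihood model in R 4.3.3 (TMM, a minimum count of 10, no replicate block, 2-sided, adjusted p under 0.05). DESeq2 1.42.0 and limma 3.58.1 on log2(RPKM + 1) were alternatives, and other limits, scalings, filters and left-out libraries were tried. The edgeR script was also run on simulated data with changes at 10 µg/ml only. The untreated libraries shared a common mean per gene there, so nothing is read from it about genes parted between them. Ratio intervals are exact conditional (Clopper-Pearson) and those of single counts exact Poisson, at 95%. Where the labels do not say that replicates are separate cultures, p-values measure the spread between these libraries. The named genes are the 2 most abundant with DAN in each direction of the untreated difference, as far as there are that many. Members and rules were chosen with earlier results of these data known.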

Additional observations from a re-analysis of the deposited data

How the results depend on the processing

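The number of genes followed the limits of the rule. It was 68 with an untreated ratio of at least 4 and 6 with at least 16, 24 with a minimum of 1 RPKM and 6 with a minimum of 5 RPKM, 2 with a ratio with DAN of at most 1.5 and 24 with at most 3, and 4 with 1 RPKM added before the ratios. Scaling to library totals alone gave 11 genes, 9 of them among the 12, and DESeq2 size factors gave 12, all of them the same. Leaving out 1 library with DAN gave 13 to 16 genes. It can only loosen the rule, so the 12 had to be included each time and nothing is read from that. With at least 2-fold distance from the range with DAN, replicate 2 lay below it in 11 genes and above it in 0, and replicate 3 below it in 1 and above it in 2. The rule itself fixes such a distance of the lower library in genes whose higher untreated library does not exceed the range.

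Members called ranged from 0 to 11 over the fits that left out 1 library, alike for either dose and for their mean against untreated, and stayed at 0 between the doses. The other alternatives (DESeq2, limma, scalings, filters, only the groups compared) called 0. Gene ENSGALG00000001085 had log2 fold changes from -0.52 to 2.50 (10 µg/ml) and from -0.67 to 2.34 (1 µg/ml) against untreated, the lowest without untreated replicate 3 and the highest without untreated replicate 2. Between the doses its value ran from -0.085 (without replicate 3 of the high dose) to 0.31, with -0.0045 without replicate 3 of the low dose. Against untreated, gene ENSGALG00000014908 ran from 0.84 to 4.97 (10 µg/ml) and from 0.73 to 4.86 (1 µg/ml), and gene ENSGALG00000025675 from 0.36 to 4.42 and from 0.042 to 4.11, between the same left-out libraries. Gene ENSGALG00000014908 ran between the doses from -0.057 (without replicate 1 of the low dose) to 0.44. The cause was not tested.

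With a replicate block 0 members were called in any comparison, and the counts over all genes were 1140 at 10 µg/ml and 2 at 1 µg/ml, against 2304 and 396 without it. Same-numbered libraries correlated in their deviations at -0.0252 to 0.185, and since not every pair exceeded 0.1 the numbers were not taken as pairs. In the other direction, 7 of 8 libraries were closest to one of their own number, a weak hint from the data that numbers may share something. These matches are not independent, since the libraries with DAN matched each other mutually across the doses. The match of untreated replicate 2 had a correlation of only 0.0299. Depth limits genes K, B and I most, with 0, 6 and 9 counts in untreated replicate 2. The comparison of replicate order and of pairs of libraries under other scalings was chosen after seeing the data and moved no count by more than 1.5 times.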
